A study of Mus musculus with 4 samples.

Results

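The genes described here are the writers, erasers and readers of histone and DNA methylation, with the histone deacetylases, sirtuins and CHD chromatin remodellers, in thymosphere RNA from mice. They were taken by gene symbol, as all Kdm, Kmt2, Kmt5, Setd, Hdac, Sirt, Dnmt1 and Dnmt3, Tet, Cbx and Chd genes of fixed name patterns together with Ezh1, Ezh2, Eed, Suz12, Jarid2, Bmi1, Ring1 and Rnf2; Kdm5c and Kdm5d were left out. Of 21154 genes named on the array 82 met this rule, and 121 of 28026 named probes stood for them. One of the 82, Dnmt3aos, is by its name an antisense transcript at Dnmt3a and was taken in by the pattern.

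Embryonic thymospheres were grown from C57Bl6/N thymus at embryonic day 14.5, and adult thymospheres from the thymus of C57Bl6/N mice aged 5 to 6 weeks. Both kinds of sphere shared the culture: digested thymus went into non-adhesive plates with B27 supplement, hydrocortisone, insulin, EGF and bFGF, medium was topped up on day 5, and spheres were lysed on day 7. There were 2 embryonic and 2 adult samples, each on a 1-colour Agilent array of the same slide. A sphere culture starts from a whole digest, so it can hold several cell types, and in such bulk RNA a smaller number of cells of a type and less RNA per cell cannot be told apart. The labels do not say which samples are biological and which technical replicates, so the p-values speak of the spread among these 4 arrays alone, and that spread may be technical.

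Histone methylation is laid down by methyltransferases and taken off by demethylases. Polycomb repressive complex 2, with a catalytic subunit encoded by Ezh1 or Ezh2 and the core subunits Eed and Suz12, methylates histone H3 at silenced developmental genes, and Polycomb repressive complex 1, with Ring1 or Rnf2, Bmi1 and a Cbx protein that reads the mark, ubiquitinates histone H2A there. Dnmt3a and Dnmt3b set new DNA methylation, Dnmt1 copies it after replication, and Tet enzymes oxidise it.

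The 250 bases before the start of 6 of these genes are shown: the 3 core genes of Polycomb complex 2, the 2 genes with the highest fold changes (Cbx6 and Dnmt3a) and the gene with the lowest (Kmt2d). The sequences are RefSeq's on GRCm38.p6, for the first start listed of each gene, written 5′ to 3′ on the gene's strand and ending just before the start. Capitals mark E2F-type octamers (TTTCCCGC, TTTGGCGC, TTTCGCGC or TTTGGCGG) and CCAAT, each on either strand.
Ezh2 (chr6:47595031-47595280, minus strand): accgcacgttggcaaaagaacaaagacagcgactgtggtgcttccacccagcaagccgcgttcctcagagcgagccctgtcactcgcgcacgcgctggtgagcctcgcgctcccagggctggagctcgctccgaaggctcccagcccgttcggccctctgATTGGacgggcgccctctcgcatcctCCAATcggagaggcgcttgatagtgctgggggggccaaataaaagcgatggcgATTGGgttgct
Suz12 (chr11:79992856-79993105, plus strand): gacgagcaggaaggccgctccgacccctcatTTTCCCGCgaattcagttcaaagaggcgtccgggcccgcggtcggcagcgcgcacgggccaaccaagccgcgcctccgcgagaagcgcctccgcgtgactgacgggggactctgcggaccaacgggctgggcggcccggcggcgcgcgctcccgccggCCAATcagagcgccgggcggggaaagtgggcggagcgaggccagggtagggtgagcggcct
Eed (chr7:89980977-89981226, minus strand): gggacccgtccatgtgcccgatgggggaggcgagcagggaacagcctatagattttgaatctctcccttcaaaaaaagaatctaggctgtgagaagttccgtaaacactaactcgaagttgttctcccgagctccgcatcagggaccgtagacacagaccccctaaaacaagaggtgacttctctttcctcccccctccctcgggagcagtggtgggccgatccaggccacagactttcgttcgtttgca
Cbx6 (chr15:79834334-79834583, minus strand): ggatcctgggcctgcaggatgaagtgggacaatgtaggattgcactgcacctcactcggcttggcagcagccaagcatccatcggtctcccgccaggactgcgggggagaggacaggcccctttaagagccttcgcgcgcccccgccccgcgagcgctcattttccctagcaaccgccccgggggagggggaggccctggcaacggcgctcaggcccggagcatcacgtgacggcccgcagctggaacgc
Dnmt3a (chr12:3806730-3806979, plus strand): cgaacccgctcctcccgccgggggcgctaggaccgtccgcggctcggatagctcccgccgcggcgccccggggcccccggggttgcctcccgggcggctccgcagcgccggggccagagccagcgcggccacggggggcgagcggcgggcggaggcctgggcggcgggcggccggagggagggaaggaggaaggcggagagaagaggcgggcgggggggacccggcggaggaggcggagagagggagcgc
Kmt2d (chr15:98871206-98871455, minus strand): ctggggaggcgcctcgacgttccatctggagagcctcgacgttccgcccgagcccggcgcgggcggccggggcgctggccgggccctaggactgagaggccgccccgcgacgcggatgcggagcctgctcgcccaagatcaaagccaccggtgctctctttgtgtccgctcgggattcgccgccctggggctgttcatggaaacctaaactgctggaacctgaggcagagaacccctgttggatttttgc

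Taken as a set, these promoters were rich in CG dinucleotides, which are the substrate of the DNA methyltransferases. The Dnmt3a stretch held 38, Suz12 37, Kmt2d 26, Ezh2 23, Cbx6 20 and Eed 12. Across the 65 genes of the set with a RefSeq promoter the median was 19, against 6 over all 27025 genes in the table. Single genes of the set ran from 0, as for Kdm4c, to 56 for Kdm7a. The median share of G and C was 62.4% for the 65 and 52.0% for all genes, and its part in the motif counts was not tested. An E2F octamer stood before 5 of the 65 (7.69%) and before 2.00% of all genes, and of the 3 core Polycomb 2 promoters it was found only in that of Suz12, 219 bases before the start. CCAAT stood before 26 of 65 (40%) against 34.5% of all, 3 times before Ezh2, and the GC box GGGCGG, not capitalised, before 44 of 65 (67.7%) against 32.9%. The palindromic NRF1 motif stood before 1 of 65 (1.54%) against 0.781% of all. All were searched on both strands, and GGGCGG can share letters with an E2F octamer or with CCAAT. Of the 37 genes called higher in embryonic spheres (as defined below) with a promoter, 3 had an E2F octamer and 25 a GC box. Of the 17 not called 2 and 11 had them, and of the 5 called lower 0 and 4. A match is a match of letters and says nothing on binding.

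Signals are given as log2 of the processed spot signal relative to the 75th percentile of the same array, so 0 is the 75th percentile and 1 unit is a doubling; levels of different probes cannot be compared with each other. A gene was tested if embryonic or adult spheres had a probe of it well above background on both arrays, and a gene is called when its adjusted p (limma, Benjamini-Hochberg over all 13667 tested genes) is under 0.05. The embryonic arrays had 28657 and 21176 spots well above background and the adult arrays 42460 and 29410, of 59305 each. Of the 121 probes of the set, 89.3% and 75.2% were well above background on the embryonic arrays, against 88.4% and 75.2% of those measured on the adult arrays. On adult array 2 the scanner software marked 2756 spots as outliers, against 95 to 185 on the others, and with them 8 probes of the set were not measured there. The epithelial markers Epcam, Krt5, Krt8, Krt14, Cdh1 and Trp63 were well above background on all 4 arrays, while the leukocyte marker Ptprc and the T cell marker Cd8a were so on no embryonic array and on 1 adult array each. Of the 8 T lineage markers Cd3e, Lck and Cd4 were so on all 4 arrays, Cd3g and Ptcra on both adult arrays and no embryonic array, and Cd3d, Rag1 and Cd8a on at most 1 adult array and no embryonic array. The epithelial regulator Foxn1 was so on all but 1 adult array. Of 1507 sensory receptor probes (smell, taste and pheromone receptors), for genes that few tissues express, 6.10% and 2.26% passed that mark on the embryonic arrays and 51.5% and 24.8% on the adult arrays.

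Most regulators of histone and DNA methylation had more transcript in embryonic spheres. Of the 76 tested, 49 were called higher in embryonic spheres (64.5%), where 36.1% of all tested genes were, and 5 were called lower (6.58%), where 17.5% of all genes were. In all, 71.1% were called, against 53.6% of all genes. The log2 fold changes, embryonic minus adult, ran from -2.06 for Kmt2d to 3.01 for Cbx6, with a median of 1.26 beside 0.79 for all tested genes, and 63 of the 76 were above 0. The groups did not overlap for 65 of the 72 genes measured on all 4 arrays (90.3%), and for 84.1% of all such genes they did not overlap either. Among genes well above background on all 4 arrays, 43 of 57 regulators rose and 1 fell (75.4% and 1.75%), where 43.8% of all such genes rose and 2.36% fell.

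These counts lean on how arrays are scaled. When the median of the tested genes was set to 0 on every array, 17 of the 76 were higher (22.4%, against 7.65% of all genes) and 9 lower (11.8%, against 20.3% of all genes), and 28% of all genes were called. The share of calls that were higher came to 65.4% for the regulators and 27.4% for all genes after this centring, beside 90.7% and 67.4% with the 75th percentile. No gene at all, regulator or not, was called by limma once adult array 1 or adult array 2 was left out. With 1 adult array left, the regulators' median log2 fold change was 1.32 and 1.16, beside 0.89 and 0.34 for all tested genes. Without embryonic array 1 and embryonic array 2 it was 1.36 and 1.31, beside 0.70 and 0.84. Over 17 alternatives, 53 of the 54 called genes kept their sign in every one that gave a value, the exception being Kmt5b, and 13 kept their call in all alternatives that use both adult arrays and gave them a value, among them Cbx6, Chd3, Chd7, Dnmt3a, Ezh1, Jarid2, Kdm2b, Kdm4a, Kdm4b, Setd1b, Setd2 and Suz12. Below, calls lost after centring are given gene by gene or as a count for the group.

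**Figure D1:**
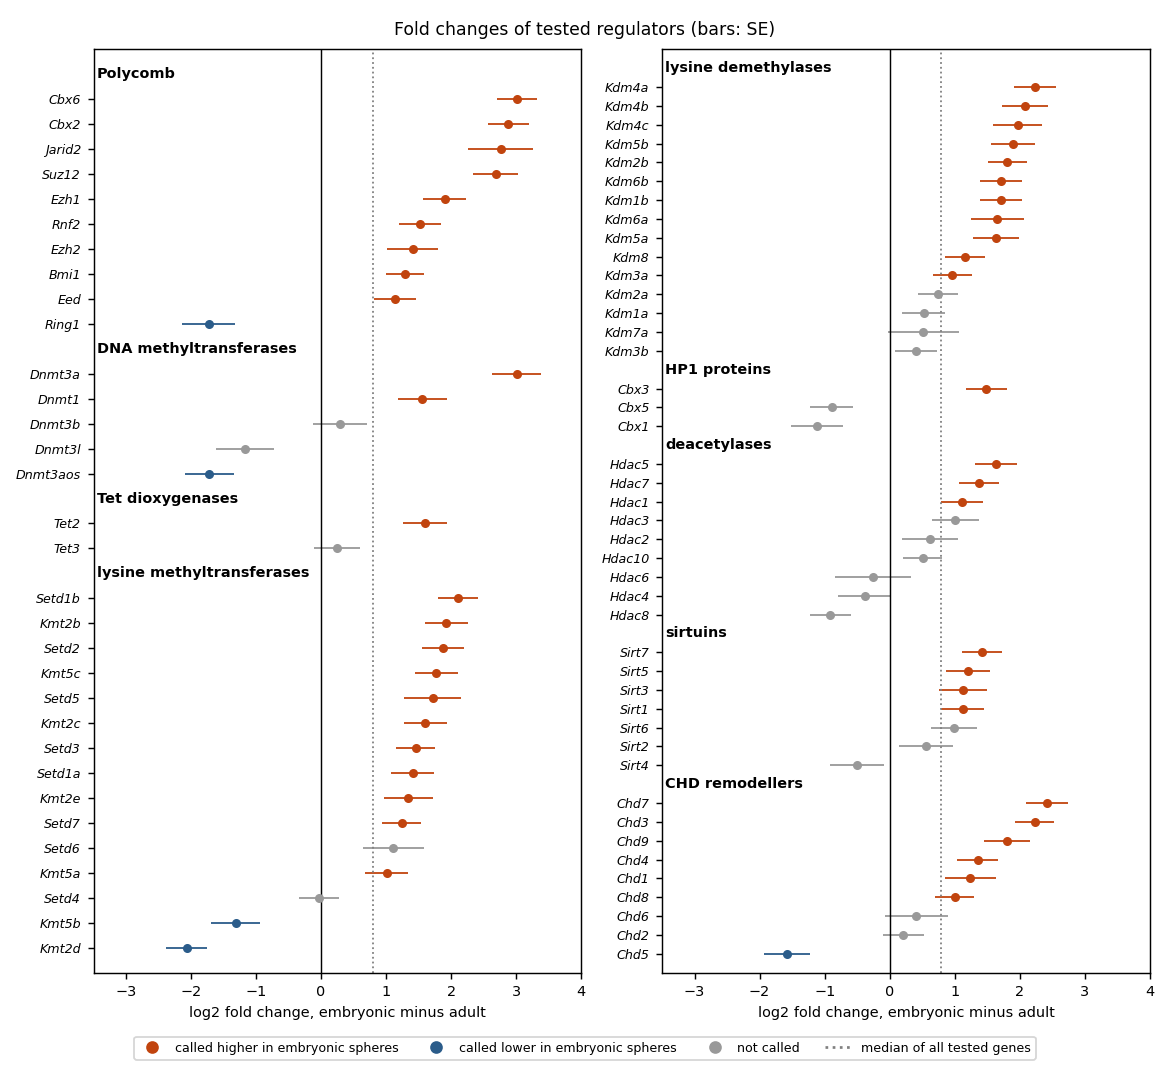
Log2 fold change, embryonic minus adult, of the tested regulators reported here, by function, with bars for the SE of the limma fit (2 arrays a group). Orange marks genes called higher and blue genes called lower in embryonic spheres, among them Cbx6 at 3.01 and Kmt2d at -2.06, grey those not called, and the dotted line the median of all tested genes at 0.79.

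**Figure D2:**
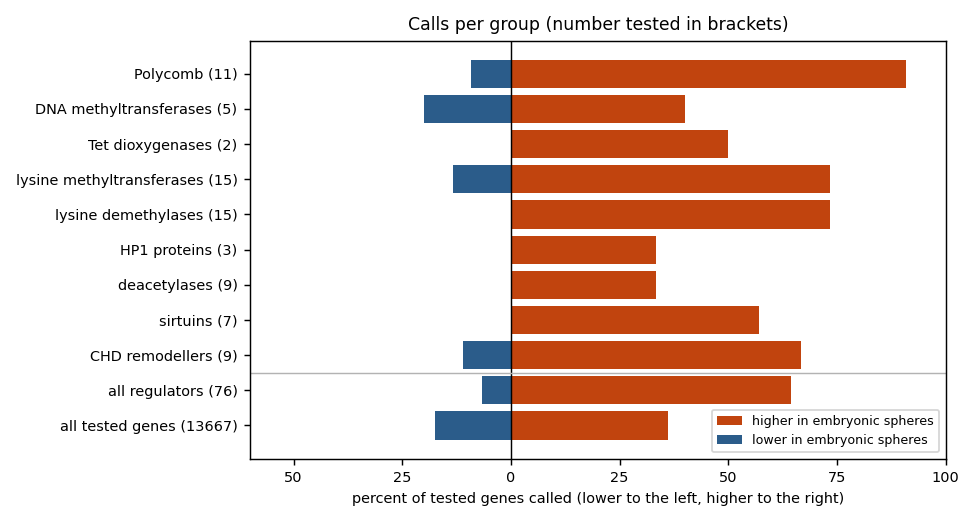
Percent of tested genes called higher (to the right) or lower (to the left) in embryonic spheres for each functional group, with the number tested in brackets. The bottom 2 bars set the 76 regulators (64.5% higher, 6.58% lower) beside all 13667 tested genes (36.1% and 17.5%). The lower call among the DNA methyltransferases is the transcript Dnmt3aos.

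Polycomb genes rose nearly throughout. Of 11 tested, 10 were called higher and 1, Ring1, lower, at a median of 1.90 on the log2 scale, and after centring 6 were higher and 1 lower. In complex 2, Suz12, a core subunit needed for its stability, had 0.82 and 0.99 in embryonic spheres and -1.50 and -2.05 in adult spheres, and rose by 2.69 (SE 0.34, adjusted p = 0.00766). Jarid2, which helps bring the complex to its targets, had 0.08 and 0.75 in embryonic spheres and -1.77 and -2.93 in adult spheres, and rose by 2.76 (SE 0.50, adjusted p = 0.0122). The groups were far apart for both, and for each only 1 of the 2 adult arrays was well above background.

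The catalytic subunits and Eed had smaller fold changes, a difference that was not tested. Ezh1, the enzyme associated with non-dividing cells, had 2.70 and 3.13 in embryonic spheres and 1.03 and 1.00 in adult spheres, and rose by 1.90 (SE 0.32, adjusted p = 0.0111). Ezh2, the enzyme associated with dividing cells, had -0.22 and -0.62 in embryonic spheres and -1.45 and -2.20 in adult spheres, a rise of 1.41 (SE 0.39, adjusted p = 0.0307). Of its 2 adult arrays 1 was well above background, and its call was lost after centring (adjusted p = 0.174). Eed, which reads the mark the complex makes, had 2.56 and 2.20 in embryonic spheres and 1.38 and 1.10 in adult spheres, and rose by 1.14 (SE 0.33, adjusted p = 0.0337), and it too was no longer called after centring (adjusted p = 0.28). None of these groups of arrays overlapped, nor did those of 84.1% of all genes measured on all 4 arrays.

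Some genes of dividing cells were called higher as well. Of 17 tested proliferation markers 8 were called higher in embryonic spheres and none lower by limma (12 and 0 at an unadjusted p under 0.05). Of all tested genes 36.1% were called higher. Of those well above background on all 4 arrays, as 15 of the 17 markers were, 43.8% were. After centring none of the 17 was called in either direction (3 higher at an unadjusted p under 0.05), where 7.65% of all genes were higher and 20.3% lower. The summed signal of the 17 markers was 91.4 and 53.6 times the 75th percentile on the embryonic arrays and 31.3 and 26.9 times on the adult arrays. Top2a, the mitotic topoisomerase, was called higher (1.93 on the log2 scale, SE 0.51, adjusted p = 0.0275), with 1 of the 2 adult arrays well above background, and the proliferation antigen gene Mki67 was not called (1.38, SE 0.50, adjusted p = 0.0606). The part of cell division in the Ezh2 and Dnmt1 values was not tested.

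In complex 1 the highest fold changes were those of Cbx readers. Cbx6 had 4.67 and 4.81 in embryonic spheres and 1.62 and 1.85 in adult spheres, which is 8.05-fold more (3.01 on the log2 scale, SE 0.31, adjusted p = 0.00727), and all 3 of its probes were called higher, by 1.98 to 3.01. Cbx2, the reader that compacts nucleosomes, had -1.32 and -1.43 in embryonic spheres and was well above background on neither adult array (-4.09 and -4.42). Embryonic spheres so had at least 3.05 times its signal. Cbx2 was tested through the embryonic arrays alone. Its call (limma, adjusted p = 0.00727) is that of the fitted values, dim ones included, and not of the bound. The call was lost with normexp background correction (adjusted p = 0.137). Its fitted log2 fold change of 2.88 was 1.56 in the deposited value table, where it stayed called (limma, adjusted p = 0.00405). Over the alternatives the lowest value was 0.68, so the bound does not carry over to other processing. Cbx7 and Cbx8, which also encode readers of this kind, had 1 probe each and were not tested, since neither group had both arrays well above background.

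Of the other subunits of complex 1, Rnf2 and Bmi1 were called higher and Ring1 lower. Rnf2, the main ubiquitin ligase of the complex, had 0.86 and 1.11 in embryonic spheres and -0.67 and -0.41 in adult spheres, and rose by 1.52 (SE 0.32, adjusted p = 0.0154). Bmi1, a self-renewal gene of many stem cells and a partner of both ligases, had 1.17 and 1.13 in embryonic spheres and -0.17 and -0.10 in adult spheres, and rose by 1.29 (SE 0.30, adjusted p = 0.0195), with its second probe called the same way when probes were fitted one by one, as are the other probe values below. Both calls were lost after centring (adjusted p = 0.098 and 0.154). Ring1, the paralogue of Rnf2, had -0.65 and -0.53 in embryonic spheres and 1.14 on adult array 1, its spot on adult array 2 being an outlier that the fit left out. It fell by 1.73 (SE 0.41, adjusted p = 0.0258), so the adult side of this call is 1 array, assumed to vary like the embryonic arrays. The call was lost when arrays were centred on all probes (-0.21, adjusted p = 0.755), with no filter on dim probes (adjusted p = 0.094) and with the replicate block (adjusted p = 0.0532), and the difference between Ring1 and Rnf2 was not tested.

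**Figure D3:**
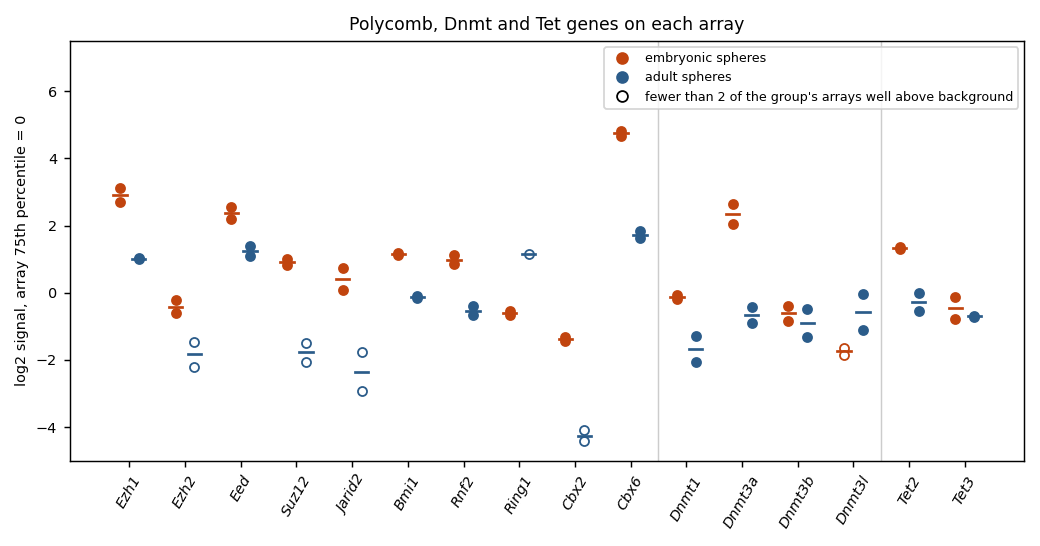
Log2 signal relative to each array's 75th percentile for the Polycomb, Dnmt and Tet genes reported here on each array, embryonic spheres in orange at the left of each pair and adult spheres in blue, with a line for the mean. Open circles belong to groups with fewer than 2 arrays well above background. The groups are separate for all but Dnmt3b and Tet3, as they are for 84.1% of all genes measured on all 4 arrays. Ring1 has 1 adult value.

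Of the 5 entries tested in the DNA methyltransferase group 2, Dnmt3a and Dnmt1, were called higher, and after centring 1 was higher and 2 lower. The 1 called lower before centring, Dnmt3aos, is by its name an antisense transcript and not an enzyme gene. Dnmt3a had 2.65 and 2.04 in embryonic spheres and -0.91 and -0.42 in adult spheres, 8.04-fold more (log2 fold change 3.01, SE 0.38, adjusted p = 0.0076). Dnmt3aos, the transcript named as its antisense, had -1.54 and -2.29 in embryonic spheres and -0.20 and -0.18 in adult spheres, and fell by 1.72 (SE 0.37, adjusted p = 0.0168). Both kept their calls after centring (adjusted p = 0.0128 and 0.0107). Of the 2 embryonic arrays 1 was well above background for Dnmt3aos.

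Dnmt1, the maintenance enzyme, had -0.18 and -0.06 in embryonic spheres and -2.05 and -1.29 in adult spheres, and rose by 1.55 (SE 0.38, adjusted p = 0.0218) and was no longer called after centring (adjusted p = 0.154). Uhrf1, which guides Dnmt1 to freshly copied DNA, rose by 2.01 (SE 0.33, adjusted p = 0.0105) and stayed called after centring (adjusted p = 0.0360). Dnmt3b, the other enzyme of new methylation, had -0.83 and -0.38 in embryonic spheres and -0.48 and -1.32 in adult spheres. These ranges overlap, and the difference was 0.29 (SE 0.41, adjusted p = 0.555), with a sign that turned after centring, with normexp, with the mean of its probes and without adult array 2. Dnmt3l, the catalytically inactive cofactor best known in germ cells, had a value of -1.17 (SE 0.45, adjusted p = 0.0722), which missed the threshold, and after centring it was called lower (-1.83, adjusted p = 0.0302).

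Of the Tet genes, Tet2 had 1.37 and 1.29 in embryonic spheres and -0.54 and -0.01 in adult spheres, and rose by 1.60 (SE 0.34, adjusted p = 0.016) and was no longer called after centring (adjusted p = 0.104). Its second probe had 0.37 (adjusted p = 0.382). Tet3 gave no settled direction: the probe that stands for it had -0.79 and -0.14 in embryonic spheres and -0.70 and -0.72 in adult spheres (log2 fold change 0.24, SE 0.36, adjusted p = 0.576), while another of its probes had -2.15 and -1.28 in embryonic spheres and 0.49 and 0.05 in adult spheres and was called lower (-1.99, adjusted p = 0.0158). Tet1, the form typical of embryonic stem cells and germ cells, had 2 probes, both too dim to be tested.

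Lysine methyltransferase genes rose in most cases. Of 15 tested, 11 were called higher and 2 lower, and after centring 4 and 2. Among the enzymes that mark active promoters, Setd1b had 1.04 and 0.82 in embryonic spheres and -1.28 and -1.06 in adult spheres, and rose by 2.11 (SE 0.31, adjusted p = 0.00908). Kmt2b had 2.28 and 2.33 in embryonic spheres and 0.14 and 0.60 in adult spheres, and rose by 1.93 (SE 0.33, adjusted p = 0.011). Setd2, which marks the bodies of transcribed genes, had 2.23 and 1.99 in embryonic spheres and 0.11 and 0.36 in adult spheres, and rose by 1.87 (SE 0.32, adjusted p = 0.0108). All 3 were still called after centring, with adjusted p between 0.0251 and 0.0459.

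The enhancer methyltransferases Kmt2c and Kmt2d moved in opposite directions. Kmt2d had -1.41 and -1.08 in embryonic spheres and 0.87 and 0.77 in adult spheres, 4.18-fold less in embryonic spheres (log2 fold change -2.06, SE 0.32, adjusted p = 0.00942). A second Kmt2d probe was also called lower (-1.68, adjusted p = 0.0283, without adult array 2, where its spot was an outlier), and centring on all probes ended the call (-0.88, adjusted p = 0.109). Kmt2c had 1.48 and 1.10 in embryonic spheres and -0.43 and -0.19 in adult spheres, and rose by 1.60 (SE 0.33, adjusted p = 0.0147), and was no longer called when arrays were centred on the tested genes (adjusted p = 0.0893). The difference between the 2 genes was not itself tested.

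The Kmt5 enzymes, which methylate histone H4, also differed among themselves. Kmt5c rose by 1.77 (SE 0.33, adjusted p = 0.0126). Kmt5b, its close relative, had -1.47 and -1.48 in embryonic spheres and 0.21 and -0.54 in adult spheres and was called lower (-1.32, SE 0.37, adjusted p = 0.0323). Of its 2 embryonic arrays 1 was well above background, and another Kmt5b probe had a log2 fold change of 0.59 (adjusted p = 0.33). Kmt5a, the enzyme of the first methyl group, had 1.55 and 2.02 in embryonic spheres and 0.73 and 0.82 in adult spheres and rose by 1.01 (SE 0.33, adjusted p = 0.0474) and was no longer called after centring (adjusted p = 0.437), while its second probe had -0.85 (adjusted p = 0.132). Setd4, at 0.90 and 1.03 in embryonic spheres and 1.09 and 0.91 in adult spheres, had the value closest to 0 (-0.04, SE 0.30, adjusted p = 0.925).

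Most lysine demethylase genes rose. Of 15 tested, 11 were called higher, and all 15 values were above 0 with the 75th percentile, with a median of 1.66. After centring 4 were higher and none lower by limma, nor was any lower at an unadjusted p under 0.05. The 4 were the Kdm4 enzymes, which demethylate the heterochromatin mark of histone H3, and Kdm2b, which brings a Polycomb 1 complex to CpG islands. Kdm4a had 1.51 and 1.82 in embryonic spheres and -0.74 and -0.40 in adult spheres, and rose by 2.24 (SE 0.33, adjusted p = 0.00905). Kdm4b had 1.65 and 1.92 in embryonic spheres, against 0.00 and -0.58 in adult spheres, and rose by 2.08 (SE 0.35, adjusted p = 0.0111), and Kdm4c rose by 1.97 (SE 0.37, adjusted p = 0.013). Kdm2b had 2.03 and 2.17 in embryonic spheres and 0.24 and 0.35 in adult spheres, and rose by 1.81 (SE 0.30, adjusted p = 0.0108). Kdm4d had 1 probe and was too dim to be tested.

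The demethylases that erase the Polycomb mark were called higher as well. Kdm6b, an inducible enzyme, had 1.34 and 1.81 in embryonic spheres and -0.12 and -0.15 in adult spheres, and rose by 1.71 (SE 0.33, adjusted p = 0.0133). Kdm6a, an X-linked enzyme that escapes X inactivation, had -1.08 and -0.33 in embryonic spheres and -2.63 and -2.10 in adult spheres, and rose by 1.66 (SE 0.41, adjusted p = 0.0222), with 1 of the 2 adult arrays well above background. Both calls were lost after centring (adjusted p = 0.0603 and 0.134). Sex-linked transcripts differed between the groups as well: Xist, the RNA of the inactive X, had 0.05 and 0.62 in embryonic spheres and -1.83 and -0.77 in adult spheres, and the Y-linked genes Ddx3y and Eif2s3y were well above background on both embryonic arrays and neither adult array. The part of the animals' sex in the Kdm6a value was not tested.

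The other demethylases were mixed. Kdm3a, which acts on a repressive H3 mark, had 1.96 and 1.99 in embryonic spheres and 1.09 and 0.93 in adult spheres, and rose by 0.96 (SE 0.30, adjusted p = 0.0425). Kdm8 had -0.35 and -0.24 in embryonic spheres and -1.36 and -1.54 in adult spheres, and rose by 1.16 (SE 0.30, adjusted p = 0.0265). Both calls were lost after centring (adjusted p = 0.436 and 0.224). Kdm1a, the demethylase LSD1 of repressor complexes, had 2.34 and 2.82 in embryonic spheres and 2.03 and 2.09 in adult spheres, a difference of 0.53 (SE 0.33, adjusted p = 0.214) whose sign turned after centring, with quantile normalization and in the deposited value table. Its relative Kdm1b was called higher (1.71, SE 0.32, adjusted p = 0.0128), and Kdm5b, which removes the promoter mark, likewise (1.90, SE 0.33, adjusted p = 0.0115). Neither was called after centring (adjusted p = 0.0627 for Kdm1b and 0.0510 for Kdm5b), and a second Kdm5b probe had -0.23 (adjusted p = 0.659, without adult array 2). Kdm7a was not called (0.52, SE 0.54, adjusted p = 0.431), but in the deposited value table it was called lower (limma, -1.72, adjusted p = 0.00633). A second Kdm7a probe had -1.38 without adult array 2. The probe that stands for a gene was picked anew in the deposited value table, so both lower values may come from the same probe.

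The heterochromatin proteins HP1, which read the mark that Kdm4 enzymes remove, did not move as one. Cbx3, for HP1 gamma, had 4.28 and 4.14 in embryonic spheres and 2.89 and 2.56 in adult spheres, and rose by 1.49 (SE 0.32, adjusted p = 0.0161) with both probes called, a call lost after centring (adjusted p = 0.0869). Cbx5, for HP1 alpha, was not called (-0.89, SE 0.33, adjusted p = 0.0658), and its second probe had 0.70 (adjusted p = 0.265). Cbx1, for HP1 beta, was well above background on neither embryonic array, which leaves a bound of at least 1.65-fold lower in embryonic spheres, and was not called (adjusted p = 0.0616). In the deposited value table its log2 difference was 0.19 (adjusted p = 0.634). After centring Cbx5 and Cbx1 were called lower (adjusted p = 0.0223 and 0.0242).

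Deacetylases and sirtuins had the lowest medians among the groups with over 5 tested genes, 0.63 and 1.12. Of 9 tested Hdac genes 3 were called higher and none lower by limma (1 lower at an unadjusted p under 0.05). After centring none was called higher (2 at an unadjusted p under 0.05) and 1, Hdac8, lower. Hdac1, the catalytic core of several repressor complexes, had 4.34 and 4.16 in embryonic spheres and 3.30 and 2.98 in adult spheres, and rose by 1.11 (SE 0.32, adjusted p = 0.0328), with all 3 probes called higher. Hdac2, its close partner, had -2.03 and -1.10 in embryonic spheres and -1.97 and -2.41 in adult spheres, which overlap, and was not called (0.63, SE 0.43, adjusted p = 0.246). The signal-responsive class IIa genes Hdac5 (1.63, SE 0.33, adjusted p = 0.0143) and Hdac7 (1.37, SE 0.31, adjusted p = 0.0178) were called higher: Hdac5 had 3.92 and 4.36 in embryonic spheres and 2.58 and 2.44 in adult spheres, and Hdac7 2.36 and 2.59 in embryonic spheres and 1.15 and 1.05 in adult spheres. Hdac4, of the same class, was not called (-0.38, SE 0.40, adjusted p = 0.44, without adult array 2). Hdac9 and Hdac11 were too dim to be tested.

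Of 7 sirtuin genes 4 were called higher and none lower by limma (none at an unadjusted p under 0.05 either), and after centring none was called (1 higher and 1 lower at an unadjusted p under 0.05). Sirt7, a nucleolar enzyme, had 2.76 and 2.95 in embryonic spheres and 1.47 and 1.40 in adult spheres, and rose by 1.42 (SE 0.30, adjusted p = 0.0164). A second Sirt7 probe had 0.20 (limma, adjusted p = 0.679). The nuclear Sirt1 had 0.45 and 0.90 in embryonic spheres and -0.35 and -0.55 in adult spheres, and rose by 1.12 (SE 0.33, adjusted p = 0.0362). The mitochondrial Sirt3 had 1.77 and 1.09 in embryonic spheres and 0.42 and 0.18 in adult spheres (1.13, SE 0.37, adjusted p = 0.0466), and Sirt5, also mitochondrial, -0.03 and -0.23 in embryonic spheres and -1.08 and -1.59 in adult spheres (1.20, SE 0.34, adjusted p = 0.0319). Sirt4, the remaining mitochondrial form, had -0.51 (SE 0.42, adjusted p = 0.319).

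CHD remodellers, which slide nucleosomes with the energy of ATP, were higher in 6 of 9 genes and lower in 1, and after centring 2 were higher and 1 lower. Chd7, the gene of CHARGE syndrome, in which the thymus can be small or absent, had 1.86 and 1.45 in embryonic spheres and -0.79 and -0.75 in adult spheres, and rose by 2.42 (SE 0.32, adjusted p = 0.0082). Of the remodellers of the NuRD repressor complex, Chd3 had 4.13 and 3.96 in embryonic spheres and 1.76 and 1.86 in adult spheres, and rose by 2.23 (SE 0.30, adjusted p = 0.00829). Chd4 had 4.48 and 4.50 in embryonic spheres and 2.95 and 3.33 in adult spheres, and rose by 1.35 (SE 0.32, adjusted p = 0.0202) and was no longer called after centring (adjusted p = 0.164).

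Chd8, a remodeller tied to Wnt signalling, had 2.63 and 2.78 in embryonic spheres and 1.78 and 1.63 in adult spheres, and rose by 1.00 (SE 0.30, adjusted p = 0.0393) and was no longer called after centring (adjusted p = 0.39). Chd5, a mainly neuronal member, had -2.15 and -1.54 in adult spheres and was well above background on neither embryonic array (-3.33 and -3.51). Its signal was so at least 1.52-fold lower in embryonic spheres. Chd5 was tested through the adult arrays alone. Its call (limma, adjusted p = 0.018) is that of the fitted values, dim ones included, and not of the bound. Its fitted log2 fold change of -1.57 shrank to -0.10 in the deposited value table, where it was not called (adjusted p = 0.82). The sensory receptor probes, too, were well above background more often on the adult arrays (6.10% and 2.26% embryonic, 51.5% and 24.8% adult). The part of this difference in the Chd5 value and in the other lower calls was not tested.

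Probes of 1 gene did not always agree. Of 22 regulators with more than 1 tested probe, 13 had the same sign on all of them and 9 did not, and the median spread between the probes of a gene was 1.02 log2 units. Chd2 was the one gene with called probes in both directions: 2 rose (2.45 and 1.86), the brightest was not called (0.21), and the remaining one had -0.22 and 0.80 on the adult arrays and was well above background on neither embryonic array. Kmt2d, Hdac1, Cbx6, Ezh1, Bmi1, Cbx3 and Kmt2e had every tested probe called the same way.

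**Figure D4:**
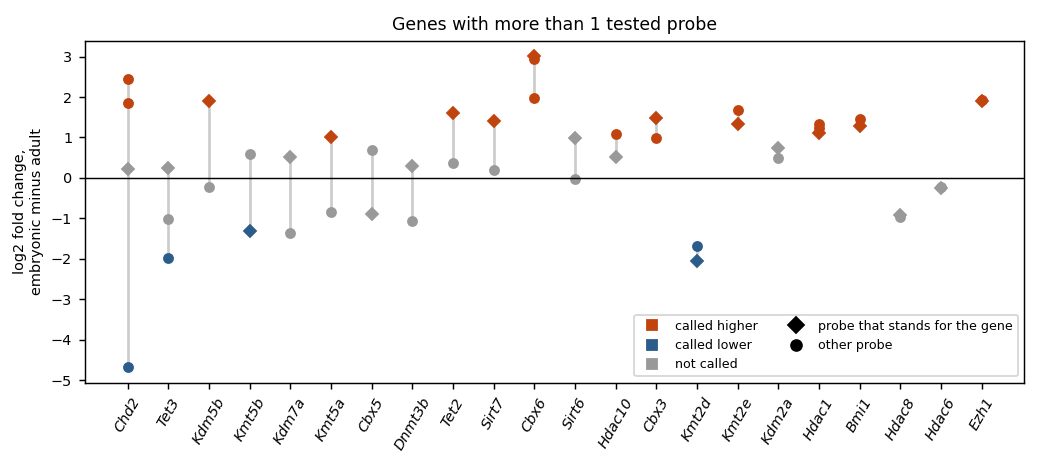
Log2 fold change, embryonic minus adult, of each tested probe for the 22 regulators with more than 1, ordered by the spread between probes; diamonds mark the probe that stands for the gene. Chd2 and Tet3 spread most, and both tested probes of Kmt2d lie below 0.

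Partners of these enzymes, taken from lists of other chromatin genes, moved in the same general direction. Of 20 tested Polycomb partners 14 rose and none fell by limma (0 lower at an unadjusted p under 0.05), with a median of 1.35, and after centring 5 were higher and 1 lower. Rybp, a subunit of Polycomb 1 complexes without a Cbx reader, rose by 2.33 (SE 0.32, adjusted p = 0.00846), and Aebp2, a cofactor of complex 2, by 2.23 (SE 0.37, adjusted p = 0.0105). Of 22 tested methyltransferase genes outside the set 15 rose and 1 fell, among them Dot1l, the enzyme of a mark on the nucleosome core, which rose by 2.03 (SE 0.32, adjusted p = 0.00956), and Ash1l, a Trithorax-group enzyme, by 1.98 (SE 0.52, adjusted p = 0.0272), a rise that missed the threshold after centring (adjusted p = 0.144). After centring 2 were higher and 2 lower.

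Of 12 acetyltransferase genes 8 rose and none fell by limma (1 lower at an unadjusted p under 0.05), with a median of 1.55, led among those well above background on all 4 arrays by Kat6a (1.97, SE 0.31, adjusted p = 0.00977) and Hat1 (1.96, SE 0.36, adjusted p = 0.0122). Of 15 genes for co-repressors of deacetylases 9 rose and 1 fell, and Ncor1 rose most among those measured well on all arrays (2.13, SE 0.36, adjusted p = 0.0108). Of 19 SWI/SNF genes 14 rose and 1 fell (median 1.36), of 8 COMPASS core genes 5 rose and 1 fell (median 1.17), and of 9 methyl-CpG readers and cofactors 6 rose and none fell by limma (median 1.41, 0 lower at an unadjusted p under 0.05). After centring these counts were 3 higher and 1 lower for acetyltransferases, 2 and 1 for co-repressors, 1 and 1 for SWI/SNF, 0 and 1 for the COMPASS core and 1 and 0 for the methyl-CpG list. Of all tested genes 7.65% were then higher and 20.3% lower, beside 36.1% and 17.5% before centring.

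Cell type markers differed between the spheres beside these values. The summed signal of the 7 epithelial markers was 147 and 262 times the 75th percentile on the embryonic arrays and 52.1 and 33.4 times on the adult arrays, with 4 called higher and 1 lower. That of the 7 fibroblast markers was 675 and 405 times on the embryonic arrays and 376 and 380 times on the adult arrays, with 2 called higher and 1 lower. That of the 5 macrophage markers was 31.3 and 22.8 times on the embryonic arrays and 10.5 and 12.3 times on the adult arrays, with 3 called higher and none lower by limma, nor any at an unadjusted p under 0.05. Of 8 T lineage markers 5 were tested, 2 of them, Cd3g and Ptcra, called lower, and of the 4 endothelial markers 3 were tested, 1 of them called lower. After centring, 2 epithelial markers were higher and 1 lower, and 2 fibroblast markers were higher and 1 lower. No macrophage marker was then called by limma (1 higher at an unadjusted p under 0.05). In the T lineage and the endothelium 2 markers each were then lower. Of all tested genes 36.1% were higher and 17.5% lower before centring, and 7.65% and 20.3% after it. The part of cell makeup in the regulators' values was not tested.

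**Figure D5:**
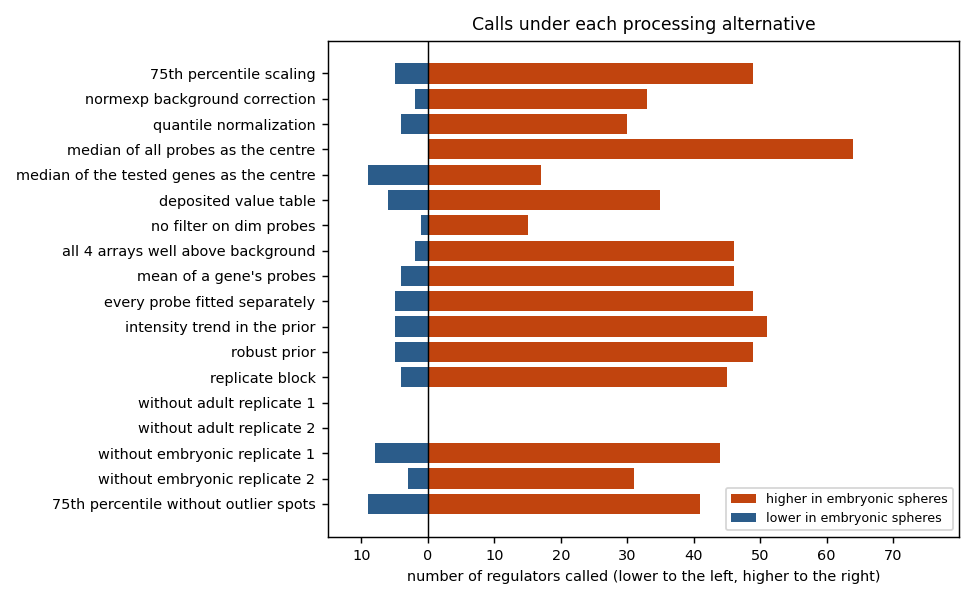
Number of the regulators called higher (to the right) and lower (to the left) in embryonic spheres under the scaling used here (top bar, 49 and 5) and under each of 17 processing alternatives. No gene at all, regulator or not, was called without adult array 1 or without adult array 2, and centring on the tested genes gave 17 and 9.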

How the data were processed

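RNA from 2 embryonic and 2 adult thymosphere samples, 25 ng each, was hybridised to 1-colour Agilent arrays, per the labels. Scanner files hold intensity per spot from Agilent Feature Extraction 10.7.3.1, background-subtracted and spatially detrended within each array, per the file headers and the submitters' processing notes. The deposited value table is linear intensity with array medians of 34.4 to 35.7. Its log2 values followed each array's median spot signal (Pearson r across probes 0.994 to 0.998); how the authors centred and normalized it is not known here.

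Control and outlier spots were left out, spots were averaged as log2 to 55681 probes, and each array's 75th percentile over non-control spots (126 and 61.5 embryonic, 132 and 66.0 adult) was subtracted. RefSeq accessions (GRCm38.p6, names only) gave 28026 probes (50.3%) a symbol. A gene's brightest tested probe stands for it, those measured on all arrays first. The difference of embryonic and adult arrays was fitted over all genes in limma 3.58.1 (lmFit, eBayes; R 4.3.3) with no covariates; the script was tested on simulated data. For a gene dim in 1 group, the bound sets each dim array at its own signal or, if that is lower, at the dimmest signal among probes well above background. Bounds hold for the 75th percentile scaling only.

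The genes and lists were chosen with earlier results of these data known. Per-array values are given for the 2 highest and 2 lowest called genes of each functional group with good signal on all 4 arrays. They are also given for the greatest bounds among called genes and for genes fixed by name. Of those, Kmt2a has no matched probe. Some genes are counted but not reported one by one here. The probe values of Chd2, Tet3, Kmt2d, Kmt5a, Kmt5b, Kdm5b, Kdm7a, Tet2, Sirt7 and Cbx5, and the per-array values of Dnmt3aos, Kmt2c, Kmt5b and Setd4, were picked once values were known. All arrays share 1 slide, so no slide block could be fitted, and an effect of array position cannot be told apart from that of group. Normexp (offset 50) used the median spot signal, as the mean was not among the columns. Other alternatives were quantile normalization, other centres, other filters and probe rules, other priors, the replicate block, the deposited table and each array left out. The number of arrays limits the precision.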

Additional observations from a re-analysis of the deposited data

How the results depend on the processing

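The number of regulators called higher in embryonic spheres, 49 of 76, was 30 after quantile normalization, 17 with arrays centred on the tested genes and 15 with no filter on dim probes. The number called lower, 5, was 2 with normexp and 0 centred on all probes. With that centre limma called 64 regulators higher, and no other regulator had an unadjusted p under 0.05. The number lower was 9 centred on the tested genes, 1 with no filter and 2 with signal asked on all 4 arrays. It was 9 with a 75th percentile taken without outlier spots, an alternative chosen after seeing the data. Leaving out 1 array at a time gave 0 to 44 higher and 0 to 8 lower, with 0 for either adult array, although 47 and 38 then had an unadjusted p under 0.05. Of all 13667 genes, 7332 were called, against 3555 with normexp, 4834 with quantile normalization, 11526 centred on all probes, 3824 centred on the tested genes, 2544 with no filter and 0 to 7370 with an array left out.

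The replicate numbers of the titles did not pair the arrays by the data (correlation of same-numbered deviations 0.07 over 13405 genes). With the number as a block (replicate block) 45 regulators were higher and 4 lower, and 7042 genes were called. Only Tet3, Dnmt3b, Kdm1a and Hdac2 among 43 genes followed one by one changed sign, none of them called at first. Tet3 had -1.86 with quantile normalization (limma, adjusted p = 0.0152), -0.42 centred on the tested genes, -0.92 with the mean of its probes and -2.42 to 0.25 with an array left out. Dnmt3b had -0.031 with normexp, -0.36 centred on the tested genes, -0.39 with the mean of its probes and -0.13 to 0.71 with an array left out. Kdm1a had -0.29 with quantile normalization, -0.13 centred on the tested genes and -0.37 in the deposited value table, and Hdac2 had -0.031 centred on the tested genes. For Tet3 another of its probes stands for the gene under some settings. The cause of the other changes was not tested. Of 202 calls lost over all settings, 77 fell when an adult array was left out, 21 with centring on the tested genes and 23 with no filter, where more genes were tested. Signals near background, as for Cbx2 and Chd5, limit their fold changes to bounds.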
